A study of Mus musculus with 9 samples.

Results

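The primary (azurophil) granule genes of the neutrophil lineage examined here were Mpo, Elane, Prtn3, Ctsg and Ms4a3. They were chosen by gene symbol, and the 5 rows were present among the 55488 genes listed for each library. RNA from sorted fetal liver cells of C57BL/6 mouse embryos at embryonic day 14.5 had been sequenced in 9 libraries, each made from the lysate of 100 cells, with 3 libraries in each of 3 groups. Evi1 HSC cells came from Tie2-Cre::ROSA-Evi1 embryos and were sorted as GFP+ and, for surface markers, as Lin- c-Kit+ Sca-1+ with CD150+ and CD48-, a haematopoietic stem cell (HSC) gate. WT HSC cells came from ROSA-Evi1 embryos, which carry the allele without the Cre, and were sorted by the same surface markers without GFP. WT KL cells came from the same ROSA-Evi1 genotype and were sorted as c-Kit+ Sca-1- Lin-, a gate of committed progenitors. All 3 groups thus carry the ROSA-Evi1 allele, and in the Evi1 HSC group it is paired with a Cre driven by Tie2 regulatory sequence, which is active in endothelial and blood cells. No label says whether the replicates came from separate embryos, so the p-values measure the spread between these libraries, which may be technical.

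Primary granules are the first granules that a maturing neutrophil makes, at the promyelocyte stage. They store myeloperoxidase, which turns hydrogen peroxide and chloride into hypochlorous acid, and a family of serine proteases that are made as inactive precursors, trimmed at the amino end by the dipeptidase Ctsc and packed on the proteoglycan serglycin. Their genes are switched on in granulocyte and monocyte progenitors under C/EBP, PU.1, RUNX1 and MYB factors, and low transcript levels of some of them are known in earlier progenitors.

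The library labelled WT HSC replicate 3 and the library labelled WT KL replicate 1 went against their labels. For Ly6a, which encodes the Sca-1 of the gate, WT HSC replicates 1 and 2 had 13.2 and 17.6 TPM while the one labelled WT HSC replicate 3 had a listed 0. WT KL replicates 2 and 3 had Ly6a at 0 and 0.0354 TPM, while the one labelled WT KL replicate 1 had 19.7 TPM. Mecom is the locus that encodes Evi1, and in the order of replicates 1 to 3 its levels were 209, 176 and 210 TPM for Evi1 HSC, 161, 114 and 0.0167 TPM for WT HSC and 90.8, 0.0107 and 0.325 TPM for WT KL. Egfp was at 23.4 to 27.3 TPM in Evi1 HSC and at most 0.380 TPM in the other 6 libraries. TPM is a share of all transcripts scaled by gene length, and it does not tell how deeply a library was read. A listed 0 is therefore no measure of absence. Each comparison of the 5 genes is therefore given over the 9 libraries as labelled. It is also given over the 7 left when both of those libraries are dropped, which leaves 2 libraries in each WT group. The dropped libraries were picked by their expression, and p-values over 7 libraries do not account for that choice. Other genes are given over 7 libraries, and over 9 libraries none of the partner, regulator, progenitor, late granule, mast cell and basophil, erythroid or neighbouring genes described below was called in any comparison.

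The promoters of the 5 genes are shown because 4 of the genes were high in the same libraries, while Prtn3, which differed, carries in its promoter the same elements as its neighbour Elane. Elane and Prtn3 are given as whole RefSeq windows (GRCm38.p6), which run from 250 bases before the annotated start to 50 after it. Mpo, Ctsg and Ms4a3 are given as stretches of 60 bases. Capitals mark the core that ETS factors such as PU.1 bind (GGAAGT) in all 5. In the whole windows they also mark a core of MYB sites (AACGG) and, closest to the start, a TATA box (TATAA).
Elane, chr10:79886062-79886361, plus strand: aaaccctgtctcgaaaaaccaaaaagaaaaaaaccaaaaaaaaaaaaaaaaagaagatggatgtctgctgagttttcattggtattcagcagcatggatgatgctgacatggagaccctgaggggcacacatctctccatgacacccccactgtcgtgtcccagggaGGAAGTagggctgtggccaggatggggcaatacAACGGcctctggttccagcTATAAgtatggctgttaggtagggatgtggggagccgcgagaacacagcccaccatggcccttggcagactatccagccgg
Prtn3, chr10:79879417-79879716, plus strand: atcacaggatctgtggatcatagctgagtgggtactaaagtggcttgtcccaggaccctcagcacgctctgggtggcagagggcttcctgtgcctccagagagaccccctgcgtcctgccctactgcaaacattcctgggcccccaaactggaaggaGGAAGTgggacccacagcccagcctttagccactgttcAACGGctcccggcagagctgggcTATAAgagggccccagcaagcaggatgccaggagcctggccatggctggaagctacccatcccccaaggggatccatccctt
Mpo, chr11:87793535-87793594, plus strand: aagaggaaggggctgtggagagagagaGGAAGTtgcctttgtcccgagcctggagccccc
Ctsg, chr14:56102747-56102806, minus strand: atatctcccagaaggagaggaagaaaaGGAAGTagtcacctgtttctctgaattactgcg
Ms4a3, chr19:11640874-11640933, minus strand: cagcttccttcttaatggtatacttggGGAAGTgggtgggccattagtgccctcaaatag

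GGAAGT was searched on both strands and stood in 5 of the 5 windows, against 23.8% of all 32851 RefSeq windows of that length, and this motif was picked with the sequences in view. In the Elane window the ETS core, the MYB core and the TATA box began 83, 50 and 31 bases before the start, and in the Prtn3 window 93, 55 and 32 bases before it, in the same order and on the gene's own strand. Of the 5 windows, AACGG was found in those 2 (17.4% of all windows), TATAA in those and in Ctsg (24.9%), TGTGGT, a RUNX core, in Ctsg (16.8%), and TTGCNNAA, a C/EBP half-site pair, in Ms4a3 (10.8%). The Ctsg matches to TATAA and TGTGGT lay on the opposite strand, at -236 and -79 from the RefSeq start, so that TATAA is not placed like a TATA box. The Ms4a3 match to TTGCNNAA lay after the start, at position 41. No 2 matches overlapped in the 5 windows, and a match describes the letters in the window, not a bound site.

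Mpo was the most abundant member in WT KL replicates 2 and 3, but not in the library labelled WT KL replicate 1, and was still present in the stem cell libraries. It had 5.22, 5.65 and 14.2 TPM in Evi1 HSC replicates 1 to 3. WT HSC replicates 1 and 2 had 13.3 and 8.24 TPM, and the library labelled WT HSC replicate 3 had 579 TPM. The library labelled WT KL replicate 1 had 13.6 TPM, against 812 and 279 TPM in WT KL replicates 2 and 3. The WT HSC and WT KL ranges overlapped as labelled, and the split into 6 low and 3 high libraries ran across the labels. In WT KL replicate 2, Mpo ranked 47 from the top among all listed genes, while its rank in the 6 low libraries lay between 6585 and 11682.

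Elane encodes neutrophil elastase. It had 0.323, 0.183 and 0.493 TPM in Evi1 HSC. In WT HSC, replicates 1 and 2 had 0 and 0.277 TPM, and the library labelled WT HSC replicate 3 had 75.7 TPM. The library labelled WT KL replicate 1 had 0.197 TPM, against 129 and 48.2 TPM in WT KL replicates 2 and 3. Evi1 HSC and WT HSC replicates 1 and 2 overlapped, and every library in the low range stayed under 1 TPM.

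Ctsg, which encodes cathepsin G, was the member with the sharpest split. It was listed at 0 in Evi1 HSC replicates 1, 2 and 3, in WT HSC replicates 1 and 2 and in the library labelled WT KL replicate 1. The library labelled WT HSC replicate 3 had 153 TPM, and WT KL replicates 2 and 3 had 180 and 91.0 TPM. No fold is given for Ctsg against groups in which every library was listed at 0.

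Prtn3, which encodes proteinase 3, behaved differently from its neighbour Elane. It had 26.5, 28.8 and 22.8 TPM in Evi1 HSC. WT HSC replicates 1 and 2 had 25.9 and 15.7 TPM, and the library labelled WT HSC replicate 3 had 75.7 TPM. The library labelled WT KL replicate 1 had 24.4 TPM, against 103 and 25.9 TPM in WT KL replicates 2 and 3. WT KL replicate 3 thus lay inside the range of the Evi1 HSC libraries, and the groups overlapped in every comparison. Prtn3 stood between the 68.9th and the 83.5th percentile of tested genes in the 6 libraries that were low in Mpo.

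Ms4a3 encodes a four-pass membrane protein and in mouse marks granulocyte and monocyte progenitors and their progeny. It had 0.0866, 0.158 and 0.0898 TPM in Evi1 HSC. WT HSC replicates 1 and 2 had 0.303 and 0.642 TPM, and the library labelled WT HSC replicate 3 had 43.8 TPM. The library labelled WT KL replicate 1 had 0.313 TPM, against 78.6 and 27.2 TPM in WT KL replicates 2 and 3. The values of Evi1 HSC and of WT HSC replicates 1 and 2 were all under 1 TPM, where values cannot be ordered. The difference between Evi1 HSC and WT HSC was not called in either fit, in which 0.00514% (9 libraries) and 0.206% (7 libraries) of tested genes were called.

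**Figure D1:**
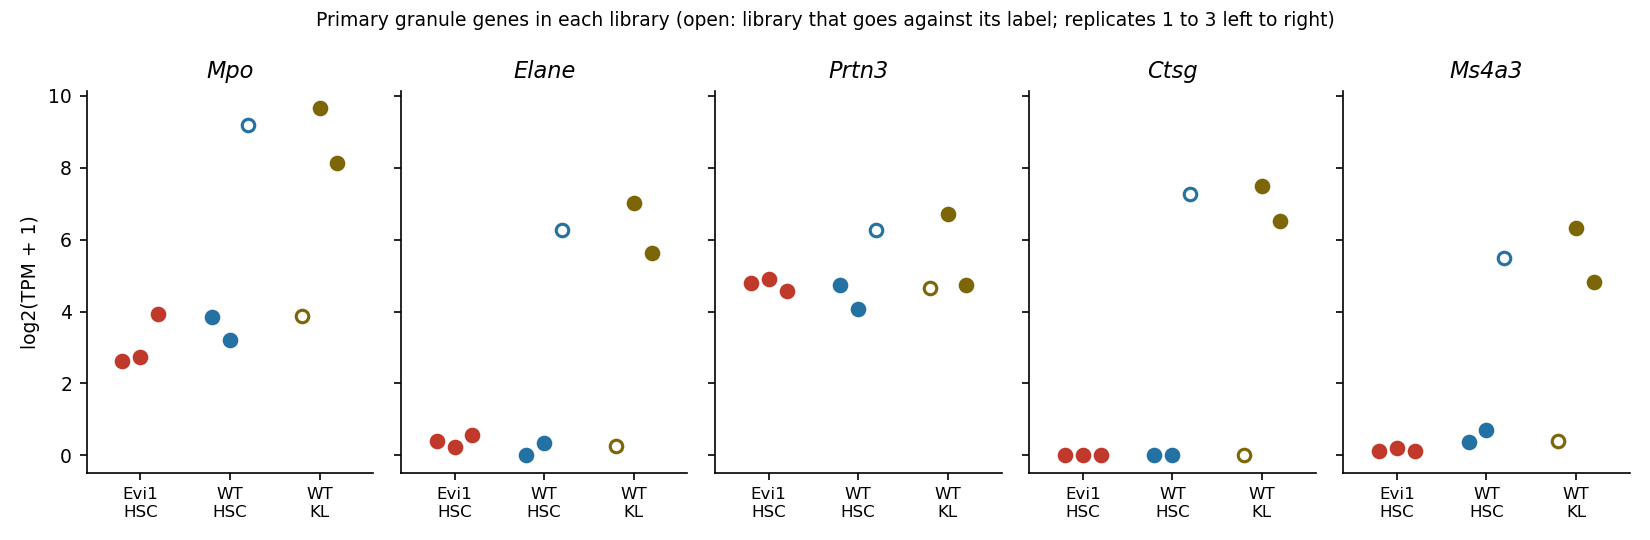
Level of each primary granule gene as log2(TPM + 1) on the vertical axis, 1 point per library, with Evi1 HSC, WT HSC and WT KL from left to right. Open circles are the library labelled WT HSC replicate 3 and the library labelled WT KL replicate 1. Mpo, Elane, Ctsg and Ms4a3 are high in the same 3 libraries, while Prtn3 of WT KL replicate 3, at 25.9 TPM, sits with the stem cell libraries.

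Residual levels in the stem cell libraries differed between the 5 genes. As a share of the mean of WT KL replicates 2 and 3, the Evi1 HSC mean was 40.3% for Prtn3, 1.53% for Mpo, 0.375% for Elane and 0.211% for Ms4a3. The mean of WT HSC replicates 1 and 2 was 32.3% of that level for Prtn3, 1.98% for Mpo, 0.893% for Ms4a3 and 0.156% for Elane. The 2 WT KL libraries differ, so these shares move with the one used. Against WT KL replicate 2 alone the Evi1 HSC mean was 25.2% for Prtn3 and 1.03% for Mpo, and against WT KL replicate 3 alone it was 101% for Prtn3 and 3.0% for Mpo. Prtn3 and Mpo were the members above 1 TPM in each of these 5 libraries. The order of the 3 lower members below Mpo rests on values under 1 TPM, where the depth is unknown.

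The makeup of the 5 genes' summed TPM differed with their level. The sum was 32.2, 34.7 and 37.6 TPM in Evi1 HSC, 39.6, 24.9 and, in the library labelled WT HSC replicate 3, 927 TPM in WT HSC, and 38.5 TPM for the library labelled WT KL replicate 1, against 1304 and 471 TPM in WT KL replicates 2 and 3. Prtn3 made up 82.5, 82.8 and 60.7% of it in Evi1 HSC, 65.5 and 63.2% in WT HSC replicates 1 and 2 and 63.3% in the library labelled WT KL replicate 1. It made up 8.16% for the library labelled WT HSC replicate 3, against 7.92 and 5.50% in WT KL replicates 2 and 3. Mpo made up 16.2 to 37.7% in the 6 low libraries and 59.2 to 62.5% in the other 3.

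**Figure D2:**
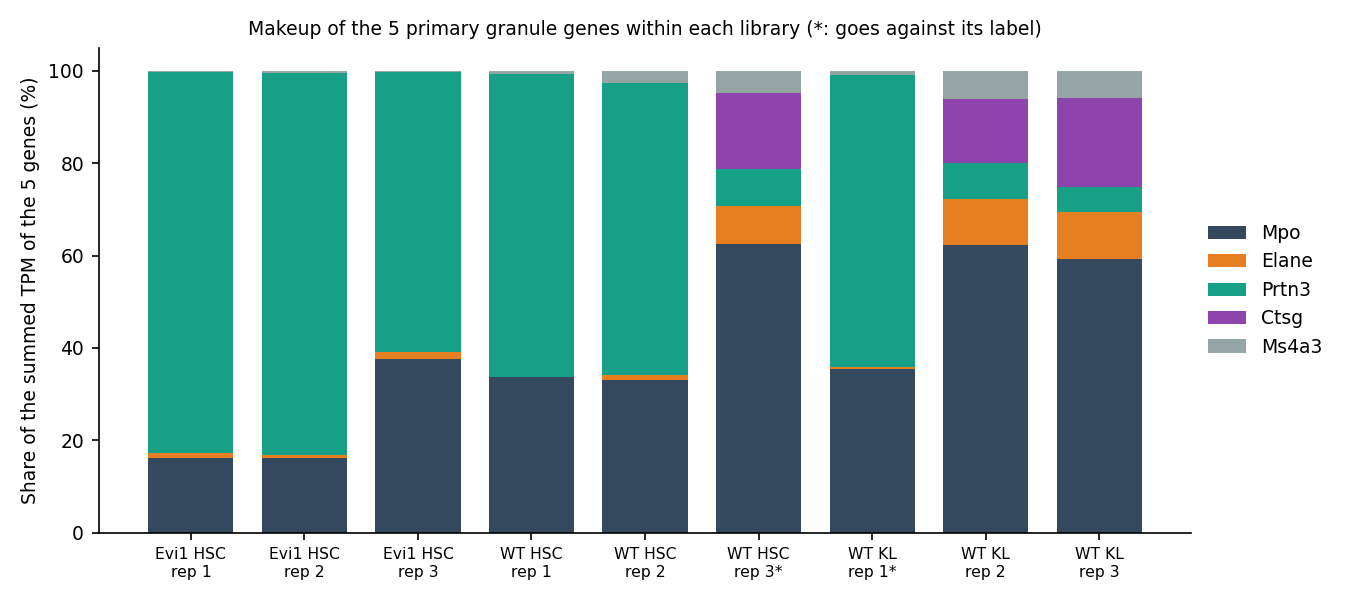
Share of the summed TPM of the 5 genes taken by each gene, in percent on the vertical axis, 1 bar per library and with asterisks on the libraries that went against their labels. Prtn3 fills 60.7 to 82.8% of the bar in 6 libraries and Mpo 59.2 to 62.5% in the other 3.

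The ratio of Mpo to Prtn3 within a library expresses the same contrast in 1 number. It was 0.197, 0.196 and 0.621 in Evi1 HSC. In WT HSC it was 0.514 and 0.524 in replicates 1 and 2 and 7.65 in the library labelled replicate 3. In WT KL it was 0.558 in the library labelled replicate 1, against 7.87 and 10.8 in replicates 2 and 3. Over the 9 libraries as labelled, the log2 ratio differed by -2.04 in Evi1 HSC against WT HSC (exact permutation test, two-sided p = 0.3), by -1.46 in WT HSC against WT KL (exact p = 0.2) and by -3.50 in Evi1 HSC against WT KL (exact p = 0.2), where the smallest p that 3 against 3 libraries can give is 0.1. Over 7 libraries the differences were -0.77 in Evi1 HSC against WT HSC (exact p = 0.4, smallest possible 0.1), -4.05 in WT HSC against WT KL (exact p = 0.333, the smallest possible) and -4.82 in Evi1 HSC against WT KL (exact p = 0.1, the smallest possible). No such design can reach 0.05.

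Evi1 HSC libraries were compared with WT HSC libraries to ask whether the Evi1 transgene moved these genes within the stem cell gate. Fits were made with limma on log2(TPM + 1) over the 19461 genes that reached 1 TPM in 3 or more of the 9 libraries, and a gene was called at a Benjamini-Hochberg adjusted p under 0.05. All 5 genes were tested, but Elane, Ctsg and Ms4a3 passed that filter only through the 3 libraries in which they were high, so a count over the members is a description. Over 9 libraries none of the 5 was called and none had an unadjusted p under 0.05, against 0.00514% of all tested genes called and 907 genes at an unadjusted p under 0.05. The log2 fold change was -2.31 ± 1.79 (SE) for Mpo with adjusted p = 0.791 in limma, -1.80 ± 2.0 for Elane, -2.04 ± 1.67 for Ms4a3 and -0.27 ± 0.65 for Prtn3. Over 7 libraries none of the 5 was called and none had an unadjusted p under 0.05, against 0.206% of tested genes called and 1635 at an unadjusted p under 0.05.

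In the fit over 7 libraries, Evi1 HSC against WT HSC gave -0.43 ± 0.55 for Mpo (limma adjusted p = 0.899) and 0.34 ± 0.53 for Prtn3 (adjusted p = 0.921). The same fit gave 0.23 ± 0.40 for Elane (adjusted p = 0.932) and -0.40 ± 0.41 for Ms4a3 (adjusted p = 0.862). The SEs, of 0.40 to 0.55 log2 units, leave room for a change of that size in either direction. The direction of Elane and of Prtn3 differed between the fits over 9 and over 7 libraries.

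WT HSC libraries were compared with WT KL libraries to place these genes between the stem cell and progenitor gates. As labelled, the 9 libraries gave log2 fold changes of -1.81 ± 1.79 for Mpo, -2.10 ± 2.0 for Elane, -1.65 ± 1.67 for Ms4a3 and -0.35 ± 0.65 for Prtn3, all with limma adjusted p = 0.963. None of the 5 was called and none had an unadjusted p under 0.05, against 0.00514% of tested genes called and 282 at an unadjusted p under 0.05. Over 7 libraries, where 10.8% of tested genes were called lower and 26.7% higher, Elane, Mpo, Ms4a3 and Ctsg were called lower in WT HSC, and nothing is read from their number because of the filter. The log2 fold change was -5.37 ± 0.60 for Mpo (limma adjusted p = 0.000962), -6.15 ± 0.44 for Elane and -5.02 ± 0.45 for Ms4a3. No p is given for Elane and Ms4a3, which passed the filter only through libraries in which they were high. For Ctsg both WT HSC libraries were listed at 0, so its p rests on values without spread and is not given.

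Prtn3 was the member not called in that fit, with a log2 fold change of -1.32 ± 0.58 in WT HSC against WT KL and limma adjusted p = 0.116. Either WT KL library moved this value by over 1.5 times. Without WT KL replicate 3 the change was -2.30 with adjusted p = 0.00845, and without WT KL replicate 2 it was -0.34 with adjusted p = 0.477. Each of these leaves 1 WT KL library, which is assumed to vary like the other groups.

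Evi1 HSC libraries set against WT KL libraries share those WT KL libraries with the comparison above. Over 9 libraries none of the 5 was called, against 0.0103% of tested genes, and Mpo alone had an unadjusted p under 0.05, as did 2956 genes. The log2 fold changes were -4.12 ± 1.79 for Mpo (limma adjusted p = 0.310), -3.89 ± 2.0 for Elane, -3.69 ± 1.67 for Ms4a3 and -0.62 ± 0.65 for Prtn3. Over 7 libraries the log2 fold change was -5.80 ± 0.55 for Mpo (limma adjusted p = 0.000315), -5.91 ± 0.40 for Elane and -5.41 ± 0.41 for Ms4a3. Elane and Ms4a3 passed the threshold, but their p is not given because of the filter. Ctsg also passed the threshold, on Evi1 HSC values that were all listed at 0. Over all tested genes 14.3% were called lower and 31.3% higher, and the members' number is not read against these shares because of the filter. Prtn3 changed by -0.98 ± 0.53 (adjusted p = 0.174). Without WT KL replicate 3 it was called at -1.95 (adjusted p = 0.00798), and without WT KL replicate 2 its change was 0.0016 (adjusted p = 0.998).

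**Figure D3:**
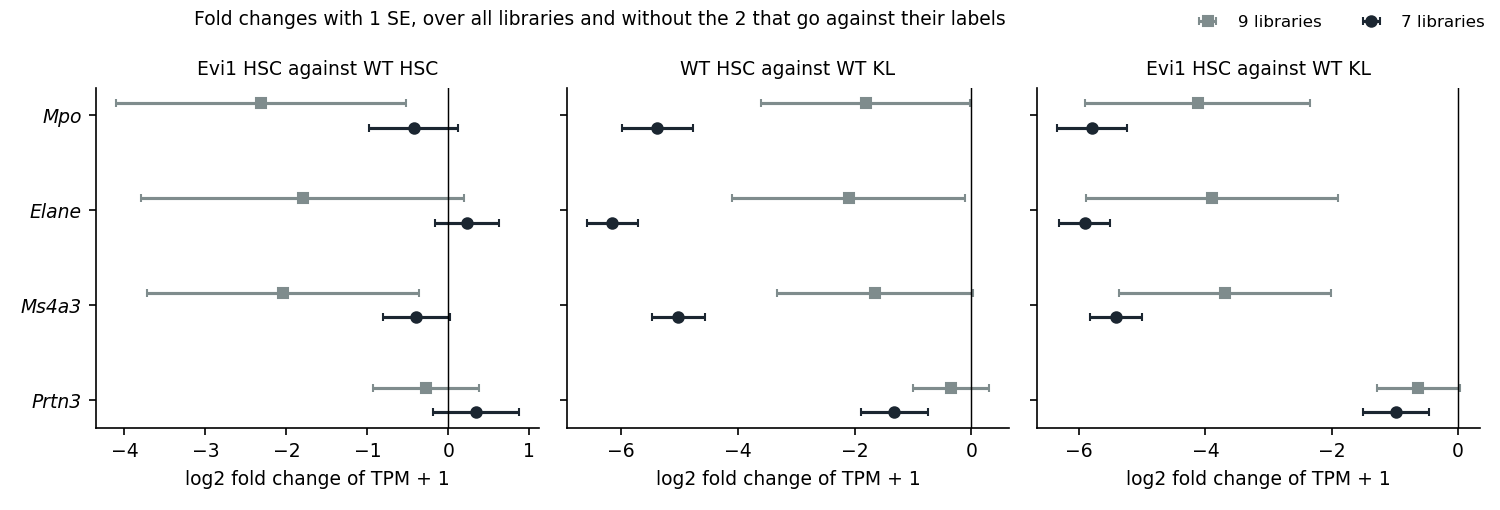
Log2 fold change of TPM + 1 with 1 SE on the horizontal axis for Mpo, Elane, Ms4a3 and Prtn3 in the 3 comparisons, over 9 libraries (grey squares) and over 7 (dark circles). Ctsg is left out because whole groups were listed at 0. Over 7 libraries Mpo, Elane and Ms4a3 lie between -5.02 and -6.15 in both comparisons with WT KL, and Prtn3 lies at -1.32 and -0.98.

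Within the KL gate the 5 genes also differed between libraries in a common direction. Each was higher in WT KL replicate 2 than in WT KL replicate 3, by 3.99-fold for Prtn3, 2.91-fold for Mpo, 2.88-fold for Ms4a3, 2.69-fold for Elane and 1.98-fold for Ctsg. Over 6707 genes at 10 TPM or more in both libraries, the median ratio was 1.09, the 5th to 95th percentiles were 0.805 to 1.55, and 1.43% of genes lay above 2. The 8 erythroid genes examined, whose lineage fills much of the KL gate in fetal liver, lay between 0.698 and 1.18, with Gata1, the erythroid master factor, at 0.906 and Klf1 at 0.973. Among granulocyte and monocyte progenitor genes, 7 of 12 lay above the 95th percentile, as did 7 of 20 granule partners and 5 of 12 regulators. Of the regulators 2 lay below the 5th percentile, as did 2 of 3 monocyte and macrophage genes, which ran from 0.223 to 0.876. These counts take genes at 1 TPM or more in the 3 libraries high in Mpo, while the percentiles come from the genes at 10 TPM or more. In samples of pooled cells, fewer cells of a type and less RNA per cell cannot be told apart.

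**Figure D4:**
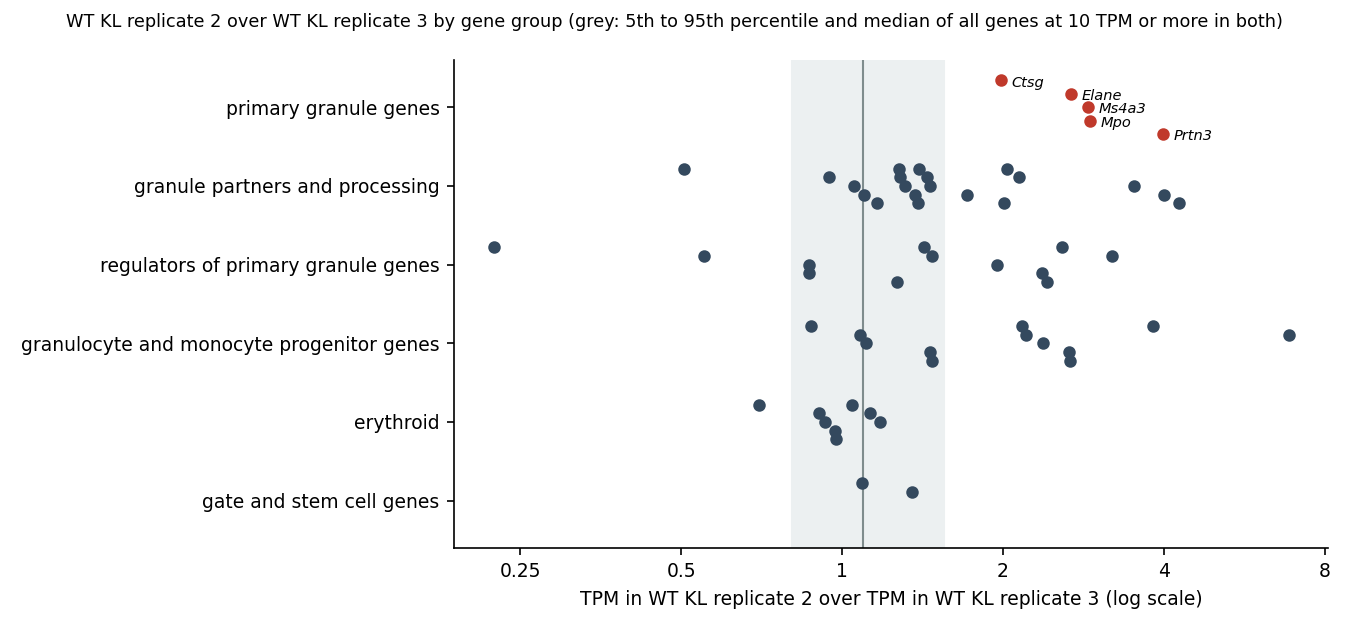
TPM in WT KL replicate 2 over TPM in WT KL replicate 3 on a log2-spaced horizontal axis, 1 point per gene at 1 TPM or more in both of these libraries and in the library labelled WT HSC replicate 3, by gene list. The 5 primary granule genes lie between 1.98 and 3.99, beyond the 95th percentile of 1.55, and the erythroid genes between 0.698 and 1.18.

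The genes lie at 4 sites in GRCm38. Elane (chr10:79886247-79888215) and Prtn3 (chr10:79874476-79883174) stand in tandem on the plus strand with 3072 bases between them, and their transcripts were 63.7% identical over 700 aligned columns. Mpo lies on chr11:87793581-87804413 (plus), Ctsg on chr14:56099881-56102574 (minus) and Ms4a3 on chr19:11629496-11640851 (minus). No stretch of 31 bases was shared between any of the 5, so reads of that length from one could not be exact copies of another. With transcripts of other genes, on either strand, Mpo shared 12.1% of such stretches (195 genes), Prtn3 7.48% and Ms4a3 1.22%, and Elane and Ctsg shared 0. The part of these stretches in the levels was not tested. Cfd, the next gene after Elane and itself a serine protease gene (adipsin), was listed at 0 in 8 libraries and at 0.159 TPM in WT HSC replicate 1. Of 9 genes listed around Elane and Prtn3, 7 were tested. In WT HSC against WT KL over 7 libraries Abca7 and Cnn2 were called higher and Polr2e and Wdr18 lower, and in Evi1 HSC against WT KL Arid3a was also higher. Of those 7, Med16 and R3hdm4 were not called in any comparison. Across the whole tested set, 26.7% passed as higher and 10.8% as lower for WT HSC against WT KL. For Evi1 HSC against WT KL the corresponding shares were 31.3% and 14.3%. With 7 neighbours tested, no change specific to this locus is read from these calls. The list leaves out the upstream genes Ptbp1 and Plppr3. Ptbp1, 9705 bases from Prtn3, was tested and not called over 7 libraries, and Plppr3 is described below.

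Both Prtn3 and Mpo share exonic bases with a gene on the other strand, and the sources used here do not give whether counting used strand. Prtn3 shares 159 of its 1732 exonic bases with Plppr3, through a Prtn3 transcript that starts upstream at 79874476. Plppr3 had 30.3, 27.2 and 34.6 TPM in Evi1 HSC. WT HSC replicates 1 and 2 had 32.4 and 27.6 TPM, with 11.7 TPM for the library labelled WT HSC replicate 3. It had 24.6 TPM for the library labelled WT KL replicate 1, against 12.7 and 11.4 TPM in WT KL replicates 2 and 3. Over 7 libraries it was called higher by 1.28 ± 0.16 in Evi1 HSC against WT KL (limma adjusted p = 0.000859), the opposite direction to Mpo, Elane and Ms4a3, and its part in the Prtn3 level of the stem cell libraries was not tested.

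Mpo shares 512 of its 3424 exonic bases with the antisense gene Gm11505. Gm11505 had 0, 0.467 and 1.19 TPM in Evi1 HSC, 0.380, 1.05 and, in the library labelled WT HSC replicate 3, 27.4 TPM in WT HSC, and 2.14 TPM for the library labelled WT KL replicate 1, against 34.8 and 22.1 TPM in WT KL replicates 2 and 3. It was high in the libraries that were high in Mpo, and without strand reads from the shared bases cannot be told apart. Tspoap1, which ends 7653 bases before Mpo, was also lower over 7 libraries, by a log2 fold change of -2.01 ± 0.46 in WT HSC against WT KL (limma adjusted p = 0.0142).

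**Figure D5:**
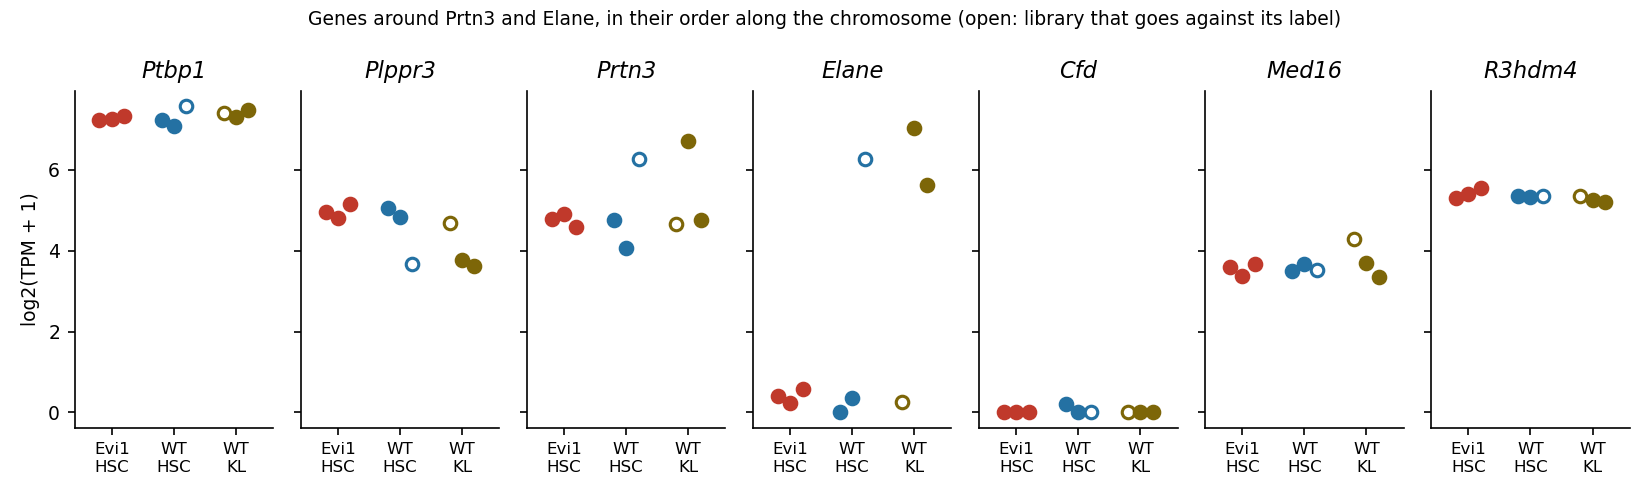
Levels of 7 genes around Prtn3 and Elane in chromosome order, as log2(TPM + 1) on the vertical axis, 1 point per library, with open circles for the libraries that went against their labels. In the 6 libraries where Elane is under 1 TPM, Prtn3 is at 15.7 TPM or more, Plppr3 is lower in the libraries high in Elane, and Cfd is at or near 0 in all.

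Proteins that make, pack or inhibit the granule enzymes did not move as a block. Of 26 listed, 23 were tested, and in WT HSC against WT KL over 7 libraries 9 were called higher, 7 lower and 7 not called, where 26.7% of all tested genes were called higher and 10.8% lower. The median log2 fold change was 0.42, against 0.26 over all tested genes. In Evi1 HSC against WT KL, 11 were higher, 7 lower and 5 not called, where 31.3% of all tested genes were called higher and 14.3% lower, with a median of 0.43 against 0.28. Those called lower in both comparisons included Prss57, another granule serine protease (-2.59 ± 0.55 in WT HSC against WT KL), Serpinb1a, an inhibitor of elastase and cathepsin G (-2.75 ± 0.49), Nkg7, a granule membrane protein (-3.15 ± 0.72), and Calr and Canx, the chaperones that fold the myeloperoxidase precursor (-0.94 ± 0.17 and -0.85 ± 0.13). Ctsc, which activates the proteases, went the other way at 0.98 ± 0.28 in WT HSC against WT KL (limma adjusted p = 0.0327). Srgn, which encodes the serglycin core, had 0.48 ± 0.40 and was not called (adjusted p = 0.379). Prss57 and Serpinb1a passed the filter only through the libraries high in Mpo, and Serpina3g, Lyz1 and Mgst1 only through those low in Mpo. The counts of this list are therefore a description.

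Lysozyme, which is stored with these enzymes, was higher in the stem cell libraries. Lyz2 had 101, 93.0 and 110 TPM in Evi1 HSC. In WT HSC, replicates 1 and 2 had 116 and 150 TPM, with 30.04 TPM for the library labelled WT HSC replicate 3. It had 143 TPM for the library labelled WT KL replicate 1, against 39.4 and 26.97 TPM in WT KL replicates 2 and 3. Lyz2 was thus lower in the 3 libraries that were high in Mpo and Elane, and among those 3 it ran in the same order as they did. None of the partners was called in Evi1 HSC against WT HSC over 7 libraries.

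Genes listed as regulators of the primary granule genes split likewise. The list is broad and also holds Gata2, Gfi1b, Klf4 and Per3, so not every gene in it is a known factor of these promoters. Of 14 listed, 12 were tested, and in WT HSC against WT KL over 7 libraries 7 were called higher, 2 lower and 3 not called, where 26.7% of all tested genes were called higher and 10.8% lower. The median log2 fold change was 1.42, against 0.26 over all tested genes. Cebpa passed the filter only through the libraries high in Mpo, so a call of it as higher in WT HSC was not possible. Cebpa, the factor that opens the granulocyte programme, was lower by a log2 fold change of -2.16 ± 0.35 in WT HSC against WT KL (limma adjusted p = 0.00385), and the other was the erythroid and megakaryocyte factor Gfi1b at -1.83 ± 0.21. Those called higher included Gfi1 (2.87 ± 0.42), Spi1, which encodes PU.1 (1.66 ± 0.36), and Runx1 (1.65 ± 0.26). Myb was not called, at 0.85 ± 0.29 (adjusted p = 0.0591). Cebpe, needed at the next stage of granule formation, was at most 0.220 TPM in Evi1 HSC and in WT HSC replicates 1 and 2, against 3.6 and 0.890 TPM in WT KL replicates 2 and 3.

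Genes of granulocyte and monocyte progenitors moved in both directions. All 16 were tested, and in WT HSC against WT KL over 7 libraries 4 were higher (Cd34, Cd93, Csf3r and Flt3), 5 lower (Clec12a, Csf1r, Fcgr3, Ly6c2 and Plac8) and 7 not called, with a median of -0.48 against 0.26 over all tested genes. Over all tested genes 26.7% were called higher, so the count of 4 higher is near that share, and 10.8% were called lower. Clec12a, Fcgr3 and Ly6c2 passed the filter only through the libraries high in Mpo, and Flt3 only through those low in Mpo. Nothing is therefore read from these counts. Fcgr3, an Fc receptor used to gate these progenitors, had 0, 0.209 and 0.192 TPM in Evi1 HSC. WT HSC replicates 1 and 2 had 0 and 0.0786 TPM, with 21.1 TPM for the library labelled WT HSC replicate 3. It had 0.318 TPM for the library labelled WT KL replicate 1, against 30.4 and 12.8 TPM in WT KL replicates 2 and 3. Of 11 genes of later, secondary and tertiary granules 3 were tested. Of these, Hp passed the filter only through the libraries high in Mpo and Ltf only through libraries low in Mpo. In WT HSC against WT KL over 7 libraries Hp, haptoglobin, was lower by a log2 fold change of -4.01 ± 0.35 (limma adjusted p = 0.000342), Itgam, an integrin chain, was higher at 2.73 ± 0.43 (adjusted p = 0.00364), and Ltf, lactoferrin, was not called at 0.65 ± 0.25 (adjusted p = 0.0844). In Evi1 HSC against WT KL, Ltf was called higher at 1.43 ± 0.23 (adjusted p = 0.00283). Among the 8 not tested, Camp had at most 3.10 TPM, Lcn2 0.233 TPM and Mmp8 0.225 TPM in any library.

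Markers of other cell types moved beside these values. Of the 8 erythroid genes, 6 were called lower, Hbb-bt higher and 1 not called in both comparisons with WT KL over 7 libraries. Their median log2 fold change was -4.23 in Evi1 HSC against WT KL and -2.65 in WT HSC against WT KL. Over all tested genes 14.3% were called lower and 31.3% higher in Evi1 HSC against WT KL. In WT HSC against WT KL these shares were 10.8% and 26.7%. The 7 eosinophil genes summed to 0 to 0.763 TPM in Evi1 HSC, to 0.0834 to 0.411 TPM in WT HSC and to 0.337 to 1.24 TPM in WT KL. The 7 mast cell and basophil genes summed to 0.968 to 4.12 TPM in Evi1 HSC, to 1.05 and 0.677 TPM in WT HSC replicates 1 and 2, to 32.6 TPM for the library labelled WT HSC replicate 3, to 0.992 TPM for the library labelled WT KL replicate 1 and to 57.1 and 13.1 TPM in WT KL replicates 2 and 3. They thus moved with the granule genes, mostly through Cpa3 and Hdc, while Cma1 and Tpsb2 were listed at 0 in all 9 libraries, and the part of the erythroid, mast cell and basophil genes in the result was not tested. The 9 monocyte and macrophage genes summed to 13.2 to 17.4 TPM in Evi1 HSC, 12.0 to 13.2 TPM in WT HSC and 12.2 to 18.5 TPM in WT KL.

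The genes whose levels were most like the mean log2(TPM + 1) of the 5 over the 9 libraries were Fcgr3 (Pearson r = 0.998), Rab44 (0.998), Hp (0.998), S100a8 (0.997), Atp8b4 (0.995), Tkt (0.995), Cct5 (0.995), Cog7 (0.995), Eif3c (0.994) and B4galnt1 (0.994), out of 8673 genes compared. The libraries fall into 2 sets, so these values describe a shared split between sets and carry no p. S100a8, a calcium-binding protein of neutrophil cytosol, was listed at 0 in Evi1 HSC replicates 1, 2 and 3, in WT HSC replicates 1 and 2 and in the library labelled WT KL replicate 1. It had 153 TPM for the library labelled WT HSC replicate 3, and 492 and 110 TPM in WT KL replicates 2 and 3. Tkt, of the pentose phosphate pathway, differed less, with 106 to 108 TPM in Evi1 HSC, against 182 and 157 TPM in WT KL replicates 2 and 3. Between the members themselves r over the 9 libraries was 0.984 to 0.997 among Mpo, Elane, Ctsg and Ms4a3 and 0.793 to 0.809 between Prtn3 and each of them. The single gene most like Prtn3 was Lmo4 (r = 0.971), and for Elane and Ctsg it was Rab44, for Ms4a3 Hp and for Mpo Nme6.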

How the data were processed

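The 9 deposited tables hold TPM per gene, 1 library per table and none pooled, per the file headers. Per the submitters' processing notes HISAT2, StringTie and mm10 were used. Not given in the sources used here are what each did, the versions, the annotation and the use of strand. The value column of WT HSC replicate 2 carried the heading C_H3, not explained by any label, and was used as TPM. Per library, listed genes held 56.9 to 63.8% of the TPM scale. TPM keeps no depth, so the depth is unknown, no counting interval is given and no count model was run.

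limma 3.58.1 (R 4.3.3) was fitted to log2(TPM + 1) values (trend, 1 mean per group, Benjamini-Hochberg over all tested genes), over the 9 libraries as labelled and over 7 without the 2 that went against their labels. The filter kept genes that reached 1 TPM in 3 or more libraries, 19461 of 55488. A fold change on this scale understates the change of low genes. The script was tested on simulated data. Same-numbered libraries of WT HSC and WT KL deviated with r = 0.621, -0.636 and 0.704, and those of Evi1 HSC with either with r from -0.104 to 0.040. The deviations were taken from labelled group means that include the 2 libraries that went against their labels. Those libraries by themselves give the WT HSC and WT KL values these signs, so the check cannot show or exclude pairing. Not every pair passed 0.1 and no label pairs the numbers, so they were not used as pairs.

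Loci and shared sequences came from GENCODE M21 (GRCm38) and promoter windows from RefSeq (GRCm38.p6), matched by gene symbol for 5 of 5 genes. Named genes were the 5 members, list members whose role is described, and the 10 genes of highest r with the members' mean (predicted and clone-named genes left out, at least 10 TPM in 1 library), with 1 per member. The members, lists and tests were chosen with earlier results of these data known.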

Additional observations from a re-analysis of the deposited data

How the results depend on the processing

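Over 9 libraries no alternative called any of the 5 genes in any comparison. Over 7 libraries Mpo, Elane, Ctsg and Ms4a3 were called in both comparisons with WT KL under every alternative that kept 2 libraries in each WT group. Nothing is read from their number, because Elane, Ctsg and Ms4a3 passed the filter only through the libraries in which they were high. The 2 libraries left out of these fits also went against their labels for these same genes. Counts of all called genes moved more. In Evi1 HSC against WT HSC over 9 libraries they were 0 with a pseudocount of 0.1 and 3 with no filter, and 1 to 3 when each library was left out in turn. In WT HSC against WT KL they were 2 with no filter and 1 to 4 with a library left out. In Evi1 HSC against WT KL they were 1 with a pseudocount of 0.1, 6 with no filter, 4 with no trend and 2 to 96 with a library left out, the last without the library labelled WT KL replicate 1. Over 7 libraries, Evi1 HSC against WT HSC gave 40 calls, 73 with no filter, 6 with the compared groups alone and 5 to 27 with a library left out; WT HSC against WT KL gave 7307 calls and 4291 to 7324 with a library left out, and Evi1 HSC against WT KL gave 8863 and 5641 to 8703. Scaling to a common 75th percentile gave 7690 and 9053 calls in those 2 comparisons.

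The replicate number fitted as a block left 0 calls in Evi1 HSC against WT HSC over 7 libraries and 4947 in WT HSC against WT KL, and changed no call of the 5 genes; the numbers share only a name in the labels.

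Leaving out libraries turned the direction of values that were not called. Over 9 libraries Elane ranged from -2.90 to 0.23 and Prtn3 from -0.76 to 0.34 in Evi1 HSC against WT HSC, and Prtn3 from -0.97 to 0.32 in WT HSC against WT KL and from -0.98 to 0.043 in Evi1 HSC against WT KL. Over 7 libraries Prtn3 ranged from -0.00036 to 0.69 in Evi1 HSC against WT HSC and from -1.95 to 0.0016 in Evi1 HSC against WT KL. The cause was not tested. For the Mpo to Prtn3 ratio, leaving out libraries and a pseudocount of 0.1 were chosen after seeing the data and turned no direction. Scaling to a common 75th percentile shifted the median of all genes by at most 0.086 log2 units. With TPM, no read depth and 2 libraries in each WT group, values under 1 TPM cannot be ordered.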

Other observations

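Of the 7 mast cell and basophil genes listed, 2 were tested. Over 7 libraries both were called lower in the stem cell gates. Over all tested genes 14.3% (Evi1 HSC against WT KL) and 10.8% (WT HSC against WT KL) were called lower. Cpa3 passed the filter only through the libraries high in Mpo, and Hdc through those and Evi1 HSC replicate 3. Nothing is therefore read from their number. Over 9 libraries neither was called. Over 7 libraries Cpa3, a mast cell carboxypeptidase, had a log2 fold change of -3.06 ± 0.26 in Evi1 HSC against WT KL (limma adjusted p = 0.00021) and -3.10 ± 0.29 in WT HSC against WT KL (adjusted p = 0.00046). Hdc, which makes histamine, had -2.60 ± 0.85 (adjusted p = 0.0432) and -3.42 ± 0.93 (adjusted p = 0.0276) in the same order. The Hdc level was 39.6 TPM in WT KL replicate 2 and 4.12 TPM in WT KL replicate 3, a ratio of 9.61.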
